A study of Mus musculus with 2 samples.

Results

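The genes of the cytoplasmic ribosomal proteins were followed through 2 single-cell libraries of mouse heart macrophages. Members were chosen by symbol (Rpl or Rps followed by a digit, Rplp, or Rpsa) and by abundance, with at least 500 unique molecular identifiers (UMIs, molecules counted once each) over both libraries. The pattern matched 101 of 32285 genes, of which 5 pseudogene symbols ending in -ps and 5 genes with under 500 UMIs were left out, leaving 91 members. The members just inside the limit were Rps6ka4 with 751 UMIs and Rps6kb2 with 1416, and those just outside were Rpl3l with 256 and Rpl39l with 210. Of the 91 members, 9 are not ribosomal proteins: 8 are kinases of the Rps6k family and 1 is Rps19bp1, a protein that binds Rps19. The other 82 were 49 genes of the large subunit and 33 of the small subunit, close copies included, and "ribosomal protein genes" below means these 82. The total UMI count chose the members, so their abundance is not a result.

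The cells were sorted as positive for CD45, CD11b and CD64 out of hearts 3 days after myocardial infarction, using the infarct together with the border zone. One library came from wild-type (WT) mice and the other from CD40 knockout (CD40 KO) mice, so there were 2 groups of 1 library each. CD40 is a receptor of the TNF receptor family. The sources used here do not give the knockout allele, the age, sex or strain of the mice, or how many mice each library pools. The labels alone tie a library to its genotype, and the second one is called the KO-labelled library below. With 1 library per group there is no replicate check and no test, every interval below is a 95% exact interval that covers counting error only, and every difference is one between these 2 libraries.

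The ribosome joins a small subunit, which decodes the messenger RNA, to a large subunit, which forms the peptide bonds. Each subunit is built from ribosomal RNA and a set of proteins that are needed in equal numbers, so the genes for these proteins are usually controlled together. Their messenger RNAs are short and abundant and begin at their 5′ end with a run of pyrimidines, the terminal oligopyrimidine (TOP) element, through which the mTOR pathway sets their translation. Growing and activated cells, macrophages among them, adjust ribosome production to their demand for protein, and neutrophils carry little of it once mature.

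The coding sequences of 3 genes are shown because their short length goes with the difference between the libraries described below. They are read 5′ to 3′ from the GENCODE vM21 transcripts of build GRCm38, with the start and stop codons in capitals. Rpl41 lies on the minus strand of chromosome 10 (chr10:128548114-128549305), Rpl38 on the plus strand of chromosome 11 (chr11:114668524-114672331) and Rps28 on the minus strand of chromosome 17 (chr17:33819027-33824562). They encode 25, 70 and 69 amino acids.
Rpl41: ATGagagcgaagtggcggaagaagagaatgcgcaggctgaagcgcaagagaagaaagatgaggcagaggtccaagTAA
Rpl38: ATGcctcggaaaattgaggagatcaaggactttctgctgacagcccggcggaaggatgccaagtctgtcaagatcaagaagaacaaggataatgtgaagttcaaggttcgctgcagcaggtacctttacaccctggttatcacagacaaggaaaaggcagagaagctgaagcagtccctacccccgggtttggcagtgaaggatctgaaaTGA
Rps28: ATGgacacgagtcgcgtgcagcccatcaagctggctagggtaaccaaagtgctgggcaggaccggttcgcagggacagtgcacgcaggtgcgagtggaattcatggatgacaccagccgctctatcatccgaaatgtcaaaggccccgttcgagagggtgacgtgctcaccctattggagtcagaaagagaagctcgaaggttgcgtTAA

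Rps27 and its close copy Rps27l are shown because their balance differed between cell types. Rps27 lies on the minus strand of chromosome 3 (chr3:90212522-90213651) and Rps27l on the plus strand of chromosome 9 (chr9:66946086-66949516). Both coding sequences have 255 bases, and the 61 positions at which they differ are in capitals, an identity of 76.1%. A second copy, Rps27rt, has the same coding sequence as Rps27 at every base, so reads from these 2 genes may not be separable and their counts are uncertain.
Rps27: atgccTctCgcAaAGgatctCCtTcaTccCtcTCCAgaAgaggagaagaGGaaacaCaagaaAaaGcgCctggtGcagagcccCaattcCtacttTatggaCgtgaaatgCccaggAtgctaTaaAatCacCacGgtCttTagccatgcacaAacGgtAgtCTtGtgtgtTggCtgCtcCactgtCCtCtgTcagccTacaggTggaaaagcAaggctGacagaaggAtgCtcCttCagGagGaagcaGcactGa
Rps27l: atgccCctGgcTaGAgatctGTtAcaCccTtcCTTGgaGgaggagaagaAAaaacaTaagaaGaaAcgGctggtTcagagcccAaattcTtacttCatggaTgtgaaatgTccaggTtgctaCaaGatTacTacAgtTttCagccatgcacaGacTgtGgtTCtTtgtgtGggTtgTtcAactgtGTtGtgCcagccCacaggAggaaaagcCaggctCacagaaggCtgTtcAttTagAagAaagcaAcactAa

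The RefSeq promoter table (build GRCm38.p6) held 62 of the 82 ribosomal protein genes. A pyrimidine run of at least 8 bases (only C and T) within 15 bases of the annotated start was present for 27 of the 62 (43.5%), against 13.9% of all 27025 genes in the table. The letters CTTTCC or CTTCC on the sense strand of the same window were found for 20 (32.3%), against 9.32%, and these letters can lie inside such a run. The letters CCGGAAG on either strand, the core bound by ETS and GABP factors, were found in 25 of the 300-base promoters (40.3%), against 9.93% of all genes. The letters TATAAA on the sense strand were found in 2 (3.23%), against 8.94%. A match is a description of the sequence and not a site. In the 30-base windows below the longest pyrimidine run is in capitals, and the annotated start is the 16th base. They show 3 genes that stood higher in the KO-labelled library and 1, Rpl14, that stood lower, and the runs of Rpl35 (18 bases) and Rpl14 (14 bases) were both long. They were picked to show a run, and other genes at either end of the ratio had short ones, with 4 bases for Rps28, 3 for Rpl41, 6 for Rps2 and 4 for Rpl5. The windows are chr11:114668565-114668594 on the plus strand, chr2:39005117-39005146 and chr3:90213634-90213663 on the minus strand, and chr9:120571502-120571531 on the plus strand.
Rpl38: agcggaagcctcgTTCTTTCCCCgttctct
Rpl35: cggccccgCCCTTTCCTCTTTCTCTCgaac
Rps27: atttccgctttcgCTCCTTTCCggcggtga
Rpl14: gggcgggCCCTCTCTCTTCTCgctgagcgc

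The WT library held 10624 barcodes and 139343516 UMIs, and the KO-labelled library 8146 barcodes and 90057108 UMIs. Filtering and removal of likely doublets left 7570 and 7427 barcodes, and the libraries shared 23 barcode sequences. In the KO-labelled library 4359 of the kept barcodes (58.7%) formed a single cluster with 19 WT barcodes, at a median of 3230 UMIs against 14639.5 for the others. Below 8000 UMIs those 4359 departed from 1 shared profile about as much as counting noise gives (chi-square per degree of freedom 1.01, median over 3983 barcodes and 2679 genes), against 2.06 for macrophage-gated barcodes of the same library and 0.969 for 665 WT barcodes of 500 to under 1000 UMIs. The genes were chosen by their level in the cluster, and the groups were not matched in depth below 8000 UMIs. The measure moves toward 1 as counts fall, so these values do not separate depth from likeness of profile. What the barcodes of the cluster are was not tested. Results that could rest on them are given with and without them. The transcript of the targeted gene, Cd40, stood at 16.8 CPM (UMIs per 1000000 UMIs, 15.8 to 17.8) in WT and 14.4 (13.1 to 15.8) in the KO-labelled library among macrophage-gated barcodes. The deleted part of the gene is not given, so tags from its 3′ end check nothing, and the group names rest on the labels.

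Barcodes were assigned to cell types by marker panels that held no ribosomal protein gene. The macrophage gate held 4280 WT barcodes and 1603 of the KO-labelled library, and 6 and 130 of these lay in the cluster just described. All 10 macrophage markers were detected in both gates, with a summed level of 7657 and 5924 CPM. The sort did not remove every other type: gates for neutrophils (298 and 72 barcodes), dendritic cells (50 and 47), T and NK cells (36 and 10), B cells (25 and 6), fibroblasts (116 and 49) and endothelial cells (169 and 10) were filled too. The B, T and NK and endothelial gates of the KO-labelled library held 10 barcodes or fewer each and carry the least weight. Outside the cluster, 2583 of 7551 kept WT barcodes and 1401 of 3068 kept KO-labelled barcodes fell in none of the gates. The gated barcodes are thus a selected part of each library.

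Ribosomal protein genes took a larger share of the macrophage transcriptome in the KO-labelled library. Their UMIs made up 9.84% (9.84 to 9.85) of all UMIs in the WT macrophage gate and 11.7% (11.7 to 11.7) in the other library, a ratio of 1.19 and a log2 ratio of 0.25 (0.25 to 0.25). The median over single barcodes was 9.65% in WT, with quartiles of 8.21% and 11.1%, and 11.7% in the KO-labelled library, with quartiles of 9.30% and 14.02%. The middle ranges overlapped, and the spread was wider in the KO-labelled library (SD 3.98 against 2.59 percentage points). Without the barcodes of the single-library cluster, in which the share was 16.5%, the log2 ratio was 0.24.

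The size of this difference moved with depth. Among macrophage-gated barcodes outside that cluster, those of 1000 to 5000 UMIs had 8.02% in WT and 9.68% in the KO-labelled library (328 and 119 barcodes). At 5000 to 10000 UMIs the order turned, with 9.55% and 9.09% (1113 and 183 barcodes). At 10000 to 20000 UMIs the shares were 9.91% and 11.5%, and from 20000 UMIs up 9.93% and 11.9%. The WT share thus varied little above 5000 UMIs, and the share of the KO-labelled library was higher in 3 of the 4 depth ranges. The summed level of the 9 neutrophil markers in the same gates was 51.7 CPM in WT and 71.1 CPM in the KO-labelled library, with none at 0, and 1124 CPM in the cluster. That of the 8 fibroblast markers was 10.5 and 27.1 CPM. The macrophage gate admits at most 3 UMIs per 10000 from the panels of other types in sum, both of these included. The cluster as a whole was not gated, so its neutrophil value cannot be set against those of the gates. The 6 markers of Ly6c monocytes summed to 602 and 1006 CPM, and to 1405 CPM in the cluster, and mitochondrial transcripts took 2.53% and 2.75% of the UMIs of the whole gates. Their part in the difference was not tested.

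Across cell types the share followed the same broad order in both libraries. Neutrophil-gated barcodes had the lowest share, 4.90% in WT and 7.82% in the KO-labelled library. Their barcode medians were closer to each other, 3.40% and 3.61%. Endothelial-gated barcodes had 10.1% and 8.67%, and dendritic-gated barcodes 12.3% and 14.8%. High shares were also seen in lymphocytes and fibroblasts, with 15.6% and 14.9% in T and NK cells, 15.4% and 17.3% in B cells, and 15.2% and 17.4% in fibroblasts. WT intervals of B and fibroblast gates overlapped (15.2 to 15.7 and 15.2 to 15.3), so their order in WT was not resolved at this depth, nor was that of B cells and fibroblasts in the KO-labelled library. In the latter the interval of T and NK cells (14.6 to 15.1) held the dendritic share too. In WT 5 of the 6 other gates stood above macrophages and in the KO-labelled library 4, the endothelial gate being the one that changed sides. The log2 ratio between libraries was 0.67 in neutrophils, 0.26 in dendritic cells, 0.19 in fibroblasts, 0.16 in B cells, −0.07 in T and NK cells and −0.22 in endothelial cells. The plot of shares by cell type shows how far single barcodes spread around these values.

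**Figure D1:**
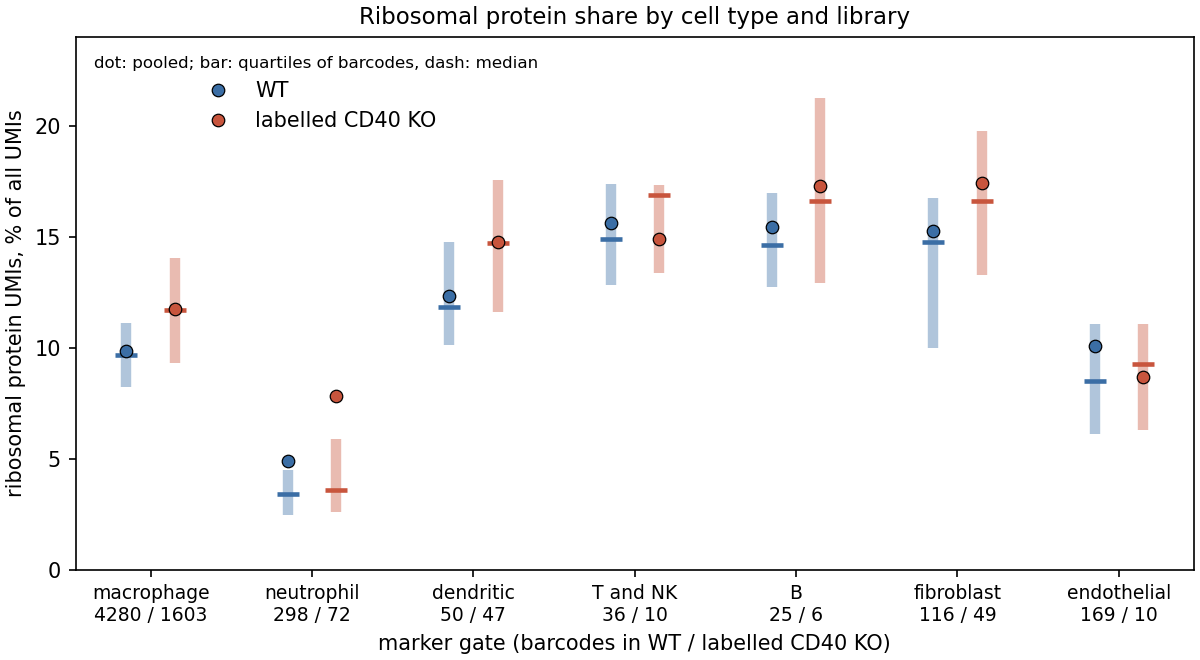
Ribosomal protein UMIs as a percentage of all UMIs (y axis) in 7 marker gates (x axis, with barcodes in WT and in the KO-labelled library). Dots are shares of the summed UMIs, bars run from the first to the third quartile of single barcodes and dashes are their medians; neutrophil-gated barcodes lie lowest (4.90% and 7.82%), and T and NK, B and fibroblast gates lie above macrophages.

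Gene by gene the contrast of cell types was broad in fibroblasts and neutrophils. At 1.3-fold in the same direction in both libraries, 57 of the 82 genes stood higher in fibroblasts than in macrophages and 1 lower, where 31.8% and 24.6% of 8202 measured genes did so. In neutrophils 0 stood higher and 70 lower (all genes 19.9% and 30.8%). In B cells 49 stood higher and 2 lower (28.7% and 31.3%), in T and NK cells 37 and 2 (30.3% and 25.7%), and in dendritic cells 23 and 0 (17.3% and 25.2%). In endothelial cells 0 stood higher and 4 lower (29.7% and 21.4%). The count takes only genes past the limit in both libraries, and the summed share stood at a log2 ratio of 0.03 to macrophages in WT and −0.44 in the KO-labelled library.

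Within the macrophage gate 5 states were set apart by marker panels. The share was 8.87% and 10.8% in barcodes high for the Met, F13a1 and Thbs1 panel (242 and 396 barcodes), and 9.53% and 11.3% in lipid-associated barcodes, which carry Gpnmb, Fabp5 and Spp1 (2023 and 294). It was 10.5% and 12.9% in cycling barcodes (84 and 103), 10.6% and 12.0% in interferon-responding barcodes (41 and 23), and 11.2% and 14.2% in barcodes high for MHC class II (386 and 95). The KO-labelled library was higher in all 5, by a log2 ratio of 0.18 to 0.35. The Met panel barcodes had the lowest and the class II barcodes the highest share of the 5 in both libraries. In none of the states did a gene of the 82 differ from the whole macrophage gate by 1.3-fold in both libraries. Of all measured genes 0.403% stood higher and 3.06% lower in the lipid-associated state, 5.4% and 6.69% in the Met panel state, 8.26% and 6.7% in the interferon state, 12.8% and 4.94% in the cycling state, and 3.95% and 4.98% in the class II state. Between the libraries, 30 of the 82 genes stood higher and 4 lower in the lipid-associated state (all genes 13.6% and 7.45%), and 33 and 4 in the Met panel state (14.3% and 13%). In the interferon state 25 stood higher and 9 lower (31.4% and 25.1%), in the cycling state 31 and 1 (21.1% and 14.0%), and in the class II state 37 and 3 (18.2% and 18.5%). In the interferon state the count of higher genes was near the share over all genes, and in the other 4 states it was above it.

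The balance of the subunits also differed between the libraries, by less. UMIs of large subunit genes outnumbered those of small subunit genes 1.14 to 1 (1.14 to 1.15) in WT macrophages and 1.19 to 1 (1.19 to 1.19) in the KO-labelled library, a log2 ratio of 0.06 (0.05 to 0.06). The ratio was 1.17 and 1.21 in fibroblasts, 1.12 and 1.15 in neutrophils, 1.09 and 1.13 in dendritic cells, and 1.15 and 1.17 in T and NK cells, where the interval of the log2 ratio (−0.01 to 0.07) held 0. In B cells it was 1.07 and 1.06, with counting intervals that overlap those of dendritic cells, and the log2 ratio of −0.01 (−0.08 to 0.06) could not be told from 0 at this depth. It was 1.17 and 1.18 in endothelial cells, where the interval (−0.03 to 0.05) also held 0. In the single-library cluster it was 1.28, and in the WT barcodes of 500 to under 1000 UMIs 1.22. The ratio also fell with depth among macrophage-gated barcodes outside the cluster. From 1000 to 5000 UMIs it was 1.20 in WT and 1.24 in the KO-labelled library, and from 20000 UMIs up 1.14 and 1.18. The KO-labelled library was higher in every depth range. Gates, cluster and low-depth barcodes were not matched in depth.

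The individual genes did not move together. Of the 82 genes, each at a mean above the 10 CPM limit, 31 stood at least 1.3-fold higher in the macrophage gate of the KO-labelled library, where 18.1% of all 7559 measured genes did, and 3 stood at least 1.3-fold lower, where 9.49% did. The other 48 lay between. The median log2 ratio was 0.21 over the 82 genes and 0.08 over all measured genes. Both subunits held higher and lower genes, with 17 of 49 and 14 of 33 higher and 2 and 1 lower. Without the single-library cluster 30 stood higher and 3 lower (18.7% and 9.52% of all genes). When counts were scaled by the median of gene ratios instead of total UMIs, the split was 23 higher and 6 lower (12.9% and 13.9% of all genes).

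The genes highest in the KO-labelled library came from both subunits. Rpl38, of the large subunit, had 309 CPM in WT macrophages against 965 CPM in KO-labelled ones, a log2 ratio of 1.64 (1.62 to 1.67). Rps28, at the mRNA exit channel of the small subunit, stood at 429 and 1244 CPM (log2 ratio 1.54, 1.52 to 1.56). Rpl35, near the peptide exit tunnel, stood at 231 and 597 CPM, Rpl39, which lines that tunnel, at 571 and 1442 CPM, and Rpl41, the shortest ribosomal protein, at 1295 and 3071 CPM. These are differences of 1.37, 1.34 and 1.25 on the log2 scale. The log2 ratio was 1.25 for Rps27, a zinc-finger protein of the small subunit, 1.203 for Rpl37 and 1.11 for Rpl36. Each of the 8 was at least 2.15-fold higher and rested on at least 15476 UMIs in each library, the fewest being those of Rpl35 in WT.

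The genes that stood lowest were longer ones. Rps2, at the mRNA entry of the small subunit, had 3266 CPM in WT against 2129 CPM in KO-labelled macrophages, a log2 ratio of −0.62 (−0.63 to −0.60). Rpl14 stood at 1149 and 847 CPM (−0.44, −0.46 to −0.42), and Rpl7 at 1233 and 928 CPM (−0.41, −0.43 to −0.39). These 3 were the genes past the 1.3-fold limit. The next 5, Rps7, Rpl5, Rps14, Rps4x and Rps3a1, had log2 ratios from −0.37 to −0.27. Rplp0, the base of the ribosomal stalk, stood at −0.26, and its partners Rplp1 and Rplp2 at 0.17 and 0.45.

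The ratio between the libraries was ordered by the length of the coding sequence. Of the 11 genes with a coding length of up to 300 bases 10 stood at least 1.3-fold higher, with a median log2 ratio of 1.203. Of 29 genes of 301 to 450 bases 19 did (median 0.41), of 19 genes of 451 to 600 bases 1 did (median 0.16), and of 23 longer genes 1 did and 3 stood lower (median −0.13). Spearman's correlation of the log2 ratio with coding length was −0.81 over the 82 genes, −0.86 over the large and −0.76 over the small subunit. It was −0.51 with the length of the whole transcript and −0.48 with the WT level. These correlations run across genes of the same 2 libraries, which are not independent replicates. The exception among the shortest genes was Rps27l, at 603 and 611 CPM (log2 ratio 0.02, −0.01 to 0.04).

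Other genes did not follow this order over the full range of lengths. Over 7339 measured genes outside the set with a coding length, the Spearman correlation was 0.33. Its sign was opposite to that of the 82 ribosomal protein genes (−0.81). Of the 191 with a coding length up to 300 bases 31.4% stood at least 1.3-fold higher and 17.3% lower, with a median log2 ratio of 0.02. Of 410 genes of 301 to 450 bases 14.1% and 16.1% did (median −0.06), and of 525 genes of 451 to 600 bases 9.14% and 19.6% did (median −0.12). Of the 6213 over 600 bases 18.0% stood higher and 8.05% lower (median 0.10). Up to 600 bases the median of other genes thus also went down with length, by less than that of the members, and over 600 bases it stood higher again. Among 74 genes of mitochondrial ribosomal proteins, which are encoded separately, the correlation was −0.11. Among ribosomal subunits that the symbol pattern missed, Fau, made as a fusion with a ubiquitin-like protein, had a short coding sequence (402 bases) and a log2 ratio of 0.71. Rack1, with 954 bases, stood at −0.12.

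**Figure D2:**
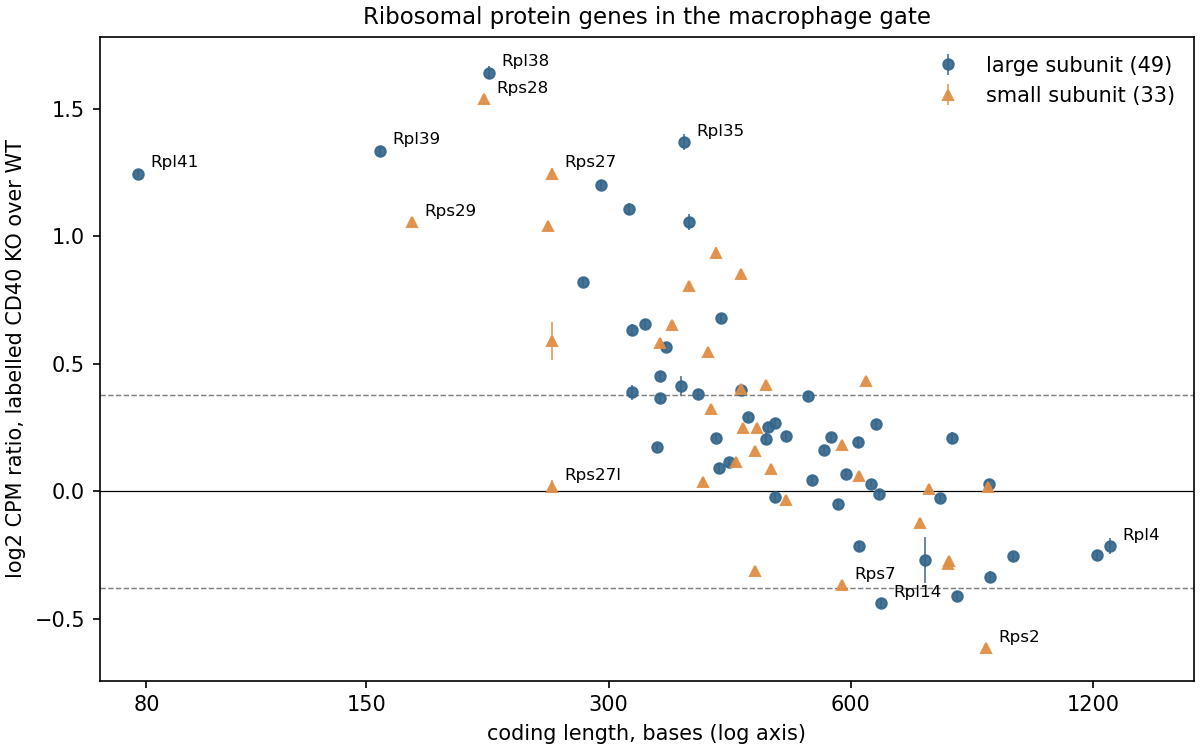
log2 ratio of CPM in the KO-labelled library over WT in the macrophage gate (y axis) against coding length in bases (x axis, log scale) for 49 large (circles) and 33 small (triangles) subunit genes; bars are 95% exact intervals for counting error and dashed lines mark 1.3-fold. Ratios fall from above 1 for most of the shortest genes to below 0 for most of the longest, with Rps27l near 0 as the exception among the short ones.

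The same order was seen outside macrophages. The Spearman correlation of the log2 ratio between libraries with coding length was −0.83 in dendritic cells, −0.83 in fibroblasts, −0.79 in endothelial cells, −0.77 in T and NK cells, −0.74 in B cells and −0.62 in neutrophils, over the same 82 genes. The 8 highest and 8 lowest genes were chosen by their ratio in the macrophage gate, so only the other 6 gates could differ in sign. All 8 genes with the highest ratio in macrophages were higher in the KO-labelled library in all 7 gates, with log2 ratios from 0.48 to 2.10. Rpl38 ranged from 1.42 to 2.10 over the 7 gates, and Rps28 from 1.05 to 2.05. Of the 8 lowest genes Rps2 was lower in all 7 gates, and 6 others were lower in 6 of the 7 and higher in neutrophils. Rpl5 was lower in 5, with 0.25 in neutrophils and 0.03 in B cells. The pooled ratio of all members is high in neutrophils, so values there sit higher as a whole.

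In counts past 1.3-fold, 32 genes stood higher and 5 lower in dendritic cells (all genes 23.0% and 30.1%), 29 and 6 in fibroblasts (16.1% and 27.3%) and 66 and 1 in neutrophils (30.2% and 24.7%). The neutrophil counts come from summed UMIs, whose share of 4.90% and 7.82% differed more than the barcode medians of 3.40% and 3.61%, and the 95th percentile over the 72 KO-labelled barcodes was 12.8%. In B cells 34 and 12 did (36.3% and 44.6%), in T and NK cells 19 and 18 (32.0% and 37.3%), and in endothelial cells 16 and 30 (35.0% and 39.1%). In these last 3 gates few barcodes give wide counting intervals, and the shares are near or below those of all genes.

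**Figure D3:**
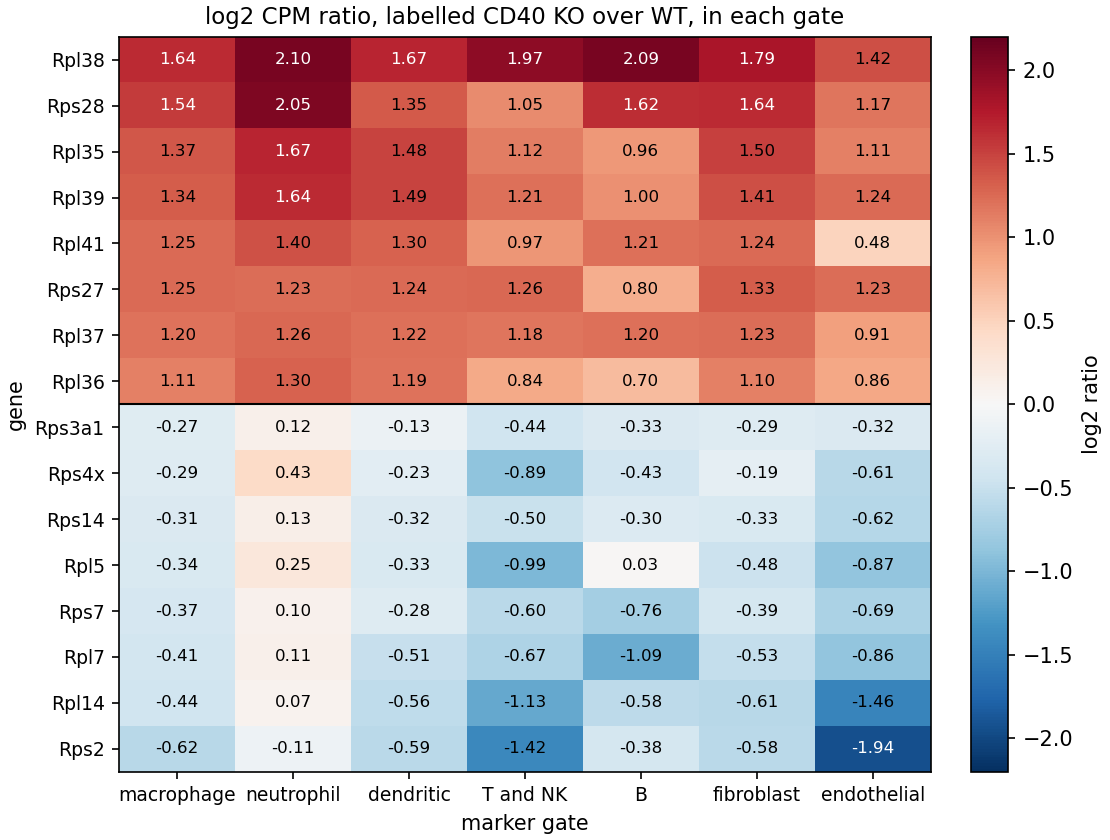
log2 ratio of CPM in the KO-labelled library over WT (colour and printed value) for the 8 genes highest and the 8 lowest in the macrophage gate (rows) in each of 7 marker gates (columns). The upper 8 genes are positive in every gate, from 0.48 to 2.10, while of the lower 8 only Rps2 is negative in every gate. The macrophage column chose these genes, so its signs were fixed.

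The order was also present in barcodes of low depth. In the single-library cluster set against the WT barcodes of 500 to under 1000 UMIs, the correlation with coding length was −0.71. The median log2 ratio was 1.22 in the 11 shortest genes and 0.17 in the 23 longest. The cluster and these WT barcodes were not of like depth, with medians of 3230 and 633 UMIs. The WT barcodes also lay under the filter limit of 1000 UMIs, which the cluster had passed. Within a library the same genes were less ordered by length. The WT barcodes of 500 to under 1000 UMIs against WT macrophages gave −0.33, and the cluster against macrophages of its own library −0.15. By composition, fibroblasts against macrophages gave 0.53 in WT and 0.48 in the KO-labelled library, cycling barcodes 0.50 and 0.29, endothelial cells 0.37 and 0.03, and neutrophils −0.37 and 0.03. Between macrophages of 5000 to 20000 UMIs outside the cluster the correlation was −0.80. The order by length was thus seen between the libraries in all 7 gates and in the comparison of the low-depth barcodes. The latter is not separate from the gates, since 130 barcodes of the cluster lie in the macrophage gate. With 1 library per genotype, genotype and everything else that differed between the libraries cannot be told apart.

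Taken as shares of the ribosomal protein UMIs alone, which removes the level common to all members, 19 of the 82 genes (23.2%) stood at least 1.3-fold higher and 13 (15.9%) lower in macrophages of the KO-labelled library. Rpl38 made up 0.314% of these UMIs in WT and 0.823% in the KO-labelled library, and Rps28 0.435% and 1.06%. Rpl41 made up 1.32% and 2.62%. Rps2, the most abundant member in WT, made up 3.32% and 1.82%, Rpl14 1.17% and 0.722%, and Rpl7 1.25% and 0.791%.

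Composition by cell type could be read within each library, against macrophages of the same library. Rps27l stood out by its low share in lymphocytes, with log2 differences of −2.58 (−3.42 to −1.86) in WT and −1.87 (−3.32 to −0.75) in the KO-labelled library in B cells, and −1.86 and −1.51 in T and NK cells. In endothelial cells it was −1.02 and −1.10. The B values rest on 15 and 6 UMIs. Rps27 went the other way, with 1.27 and 0.91 in B cells and 1.09 and 0.65 in neutrophils. Rps9, a protein of the small subunit, stood at 0.84 and 0.47 in neutrophils.

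The composition in fibroblasts differed from that in macrophages in a similar way in both libraries. Rps29, a small zinc-binding protein of the small subunit, took a lower share than in macrophages (−1.15, −1.21 to −1.08 in WT and −0.99, −1.05 to −0.93 in the other library), and Rpl38 did too (−0.74 and −0.53). Rpl22l1 took a higher share (0.90 and 0.70), and so did Rpl5, which carries 5S ribosomal RNA (0.63 and 0.55). Over the 82 genes the differences of fibroblasts from macrophages in WT and in the KO-labelled library had a Pearson correlation of 0.94. It was 0.87 in dendritic cells, 0.86 in T and NK cells, 0.77 in B cells, 0.72 in neutrophils and 0.65 in endothelial cells. The T and NK, B and endothelial values rest on 10, 6 and 10 barcodes in the KO-labelled library. The WT and the other values come from different barcodes, but all gates of a library share its preparation.

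Smaller differences repeated in both libraries in other gates. Rps2 took a lower share in neutrophils (−0.51 and −0.42) and dendritic cells (−0.49 and −0.48). Rpl41 was low in B cells (−0.86 and −0.81) and in T and NK cells (−0.69 and −0.65), where Rpl13a was high (0.64 and 0.60). Rpl15 (0.49 and 0.51) and Rpl7 (0.46 and 0.48) were high in endothelial cells. For each of these the counting interval lay on one side of 0 in both libraries.

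Close copies of ribosomal protein genes were weighed against their partners. Rps27l made up 55.6% (55.2 to 56.0) of the Rps27l and Rps27 UMIs in WT macrophages and 34.8% (34.4 to 35.2) in those of the KO-labelled library. It made up 47.5% and 29.5% in fibroblasts, 37.5% and 21.8% in neutrophils, 35.1% and 24.2% in dendritic cells and 34.4% and 13.4% in endothelial cells. It was lower in T and NK cells, 21.8% and 10.8%, and lowest in B cells, 8.02% (4.56 to 12.9) and 7.23% (2.70 to 15.1). Macrophages thus had the highest share of this copy in each library. Rps27l is known as a p53 target. In macrophages Rps27l stood at 603 and 611 CPM, close to each other, and Rps27 at 481 and 1142 CPM.

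Rpl36al made up 57.0% and 61.1% of the Rpl36al and Rpl36a UMIs in macrophages and 65.8% and 69.5% in neutrophils. It made up 37.1% and 39.5% in fibroblasts and 31.1% (21.8 to 41.7) and 26.7% (12.3 to 45.9) in B cells. The 2 coding sequences have an identity of 87.9% over 321 bases. Rpl22l1, a copy of Rpl22 known to be regulated by it, made up 22.5% and 22.9% of the pair in macrophages, 36.7% and 32.0% in fibroblasts and 32.7% and 32.8% in T and NK cells. Rpl7l1, a copy that acts in assembly of the large subunit, made up 4.08% and 4.48% of the pair with Rpl7 in macrophages. Rps27rt stood at 51.8 and 77.9 CPM in macrophages, with the uncertainty named above. Except for Rps27l the shares of macrophages differed by under 5 percentage points between the libraries.

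**Figure D4:**
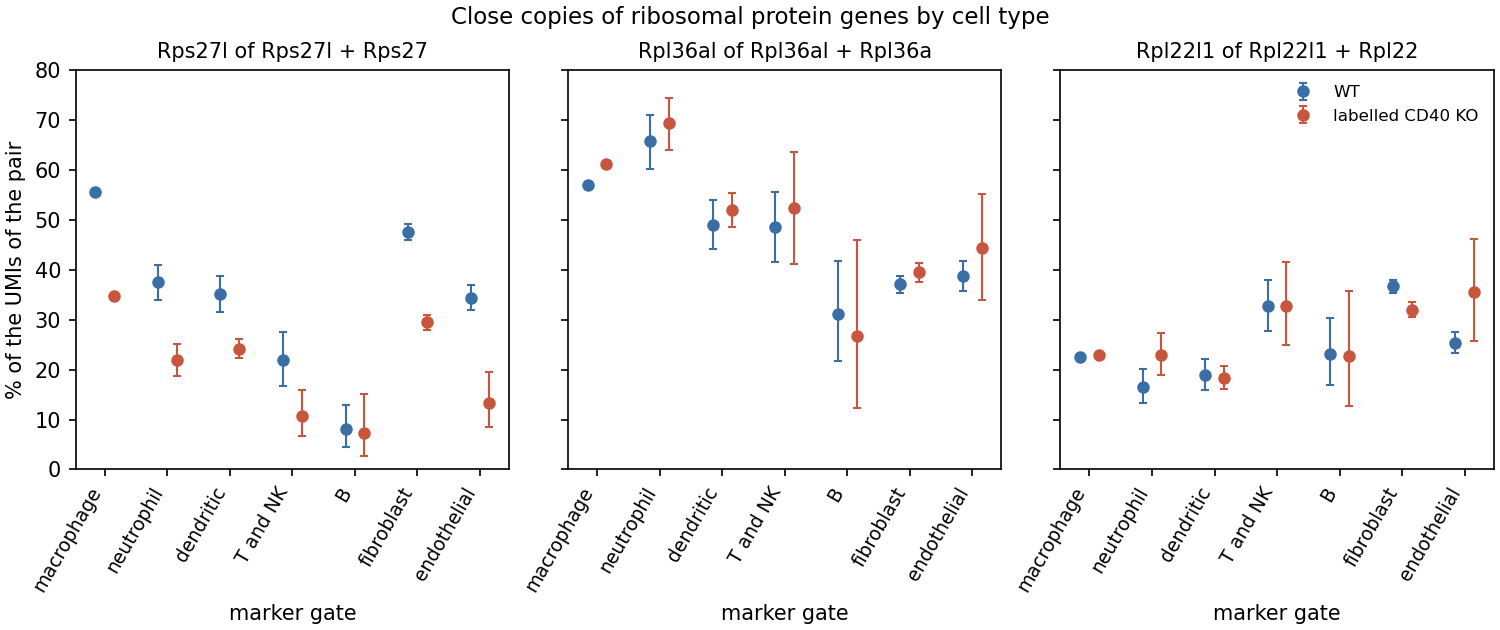
UMIs of a close copy as a percentage of the UMIs of the copy and its partner (y axis) in 7 marker gates (x axis) for Rps27l, Rpl36al and Rpl22l1, in WT and in the KO-labelled library; bars are 95% exact intervals for counting error. Rps27l falls from 55.6% and 34.8% in macrophages to 8.02% and 7.23% in B cells.

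The 9 members that are not ribosomal proteins stood at 3.07 to 71.0 CPM in WT macrophages, and 7 of them passed the minimum of 10 CPM. Rps6kb1, the S6 kinase that acts below mTOR, stood at 46.7 and 67.98 CPM (log2 ratio 0.54, 0.46 to 0.62) and was the one of these 7 past 1.3-fold, where 18.1% of all genes stood higher. Rps6ka3, a kinase of the RSK family below ERK, stood at 71.0 and 91.5 CPM (0.37), and at a log2 ratio of 0.38, past the limit, without the single-library cluster. Rps6ka2 stood at 18.5 and 14.99 CPM (−0.30). Rps19bp1 stood at 38.8 and 40.7 CPM (0.07, −0.03 to 0.17).

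Other genes of the translation machinery were described by 6 fixed lists in the same macrophage gate, against the shares of 18.1% higher and 9.49% lower over all genes. Of 7 elongation factors 0 stood higher and 1 lower, Eef1a1, which brings transfer RNA to the ribosome, at 4373 and 2809 CPM (log2 ratio −0.64). Of 29 initiation factors 1 stood higher and 3 lower. Eif3j1 stood at 73.4 and 98.3 CPM (0.42), and the helicase Eif4a1 at 724 and 473 CPM (−0.61). Of 19 other transcripts with a TOP element 2 stood higher, Fau among them, and 4 lower, with Btf3 at 841 and 560 CPM (−0.59). The medians of these 3 lists were −0.16, −0.11 and −0.11.

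Of 31 ribosome assembly genes 27 were measured and 3 stood higher and 0 lower (median −0.02), among them Nop58, a nucleolar protein of small RNA complexes, at 36.1 and 52.0 CPM (0.52). Of 11 upstream regulators 8 were measured, 3 stood higher and 0 lower (median 0.22), among them Rps6kb1, given above, and Myc, a transcription factor of ribosome production, at 13.3 and 19.8 CPM (0.57). Of 78 genes of mitochondrial ribosomal proteins 74 were measured, with 4 higher and 14 lower (median −0.22). Mrpl33 and Mrpl52, with coding lengths of 198 and 366 bases, stood at 91.8 and 195 CPM and at 125 and 242 CPM (log2 ratios 1.09 and 0.95), and Mrpl24, with 651 bases, at 67.0 and 36.9 CPM (−0.86). These 3 do not stand for an order by length in this list. Over the 74 genes the Spearman correlation with coding length was −0.11. Without the single-library cluster the initiation factors held 1 higher and 5 lower and the other TOP transcripts 2 and 5, and the counts of the remaining 4 lists were as above.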

How the data were processed

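Sorted heart macrophages were profiled by 10x Chromium 3′ single-cell sequencing. The authors deposited unnormalized UMI counts, and the file headers name Cell Ranger 7.0.1 as their source. Build mm10, Cell Ranger and STAR are listed in the submitters' processing notes without a role. The sources used here do not state whether intronic reads were counted or how reads that match several copies were assigned.

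Barcodes under 1000 UMIs, under 500 genes or over 10% mitochondrial UMIs were dropped, and those with the highest Scrublet scores were removed at 0.8% per 1000 barcodes. Both libraries were clustered together (scanpy 1.11.5, 2000 variable genes, 30 components, 15 neighbours, Leiden resolution 0.6). Gates used fixed marker panels as UMIs per 10000: macrophage panel at least 10 with at least 3 markers and the other types' panels at most 3 in sum; other types at 10 to 50 with the macrophage panel under 20. These limits, and states within macrophages, were set after the panel distributions were seen. UMIs were summed per gate and library and scaled to CPM. A 3′ tag marks 1 molecule, so CPM was not divided by length. Ratios carry exact conditional and shares exact binomial (Clopper-Pearson) 95% intervals. The ratio script was checked on simulated counts. A gene counted at 1.3-fold and a mean of at least 10 CPM.

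Members and lists were chosen with earlier results of these data known. Named genes are the 8 highest and 8 lowest ratios, the 5 highest and lowest by composition, the most and least abundant, the close copies, the members that are no ribosomal proteins and the 2 ends of each list, of which the text prints a part. Genes named for a cell type difference and the stalk proteins were chosen after their values were seen. Some genes are counted but not reported by name here. Coding lengths come from the principal GENCODE vM21 transcript, for 82 of 82 genes. Alternatives changed the filters, gates, depth, weighting, scaling and limits.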

Additional observations from a re-analysis of the deposited data

Results flagged for a closer look

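In 2 gates the ribosomal protein share differed between the libraries in the direction opposite to macrophages. In macrophages the log2 ratio of KO-labelled over WT was 0.25. It was −0.072 (−0.10 to −0.04) in T and NK cells and −0.22 (−0.25 to −0.19) in endothelial cells. Each of these gates held 10 barcodes in the KO-labelled library, and the medians of single barcodes had the other order in both, 14.9% and 16.9% in T and NK cells and 8.51% and 9.25% in endothelial cells. The large to small subunit ratio was opposite in B cells, with a log2 ratio of −0.013 (−0.08 to 0.06) against 0.06 in macrophages, from 25 and 6 barcodes. None of these differences between gates was tested, since each library is 1 sample.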

How the results depend on the processing

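No paired analysis was possible because each group has 1 library. The log2 ratio of the ribosomal protein share in macrophages, 0.25, stayed positive under all 8 alternatives. It moved beyond its counting interval to 0.19 with barcodes of 5000 to 20000 UMIs, 0.24 without the single-library cluster, 0.26 without doublet removal, with doubled gate limits and without mitochondrial UMIs, and 0.26 with each barcode scaled to the same total. The log2 ratio of large to small subunit UMIs, 0.055, stayed positive under all 9 and moved to 0.058 with doubled gate limits, 0.068 with 5000 to 20000 UMIs, 0.069 with each barcode scaled alike and 0.037 without the 3 most abundant genes of each subunit. The counts of 31 higher and 3 lower genes (all genes 18.1% and 9.49%) became 20 and 1 at 1.5-fold (8.11% and 2.79%). With median-of-ratios scaling they became 23 and 6 (12.9% and 13.9%). With 5000 to 20000 UMIs they became 25 and 8, where the shares over all genes were also higher (20.4% and 15%). Counts by composition and the totals over the 6 lists stayed within 1.5 times, while the lower initiation factors went from 3 to 5 without the single-library cluster. Of the 21 named genes past 1.3-fold, 16 were past it in the same direction under all 9 settings run on them. The cause of these shifts was not tested. The relation to coding length was not among the planned results in any gate, the macrophage gate included. Its part outside the macrophage gate's own cells was added after seeing the data. The B, T and NK and endothelial gates held at most 10 barcodes in the KO-labelled library, which limits what depth can show there.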
